A study of Danio rerio with 30 samples.

Results

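Integrins, cadherins and claudins are adhesion proteins of cell-matrix contacts, adherens junctions and tight junctions. Their genes were followed here in the developing retina of the zebrafish (Danio rerio). A gene was taken when its symbol began with itga or itgb, with cdh and a number, or with cldn, and when its normalised count was at least 10 in at least 5 of 30 libraries. The gene cdh5, which marks blood vessels, was left out. Of 91 symbols that matched, 47 met the threshold, namely 20 integrins, 15 cadherins and 12 claudins, among the 17360 of 27731 genes that met it in the whole table. A further 43 matches fell below it, namely 14 integrins, 10 cadherins and 19 claudins. Membership follows the symbol alone. The integrins therefore include itgb1bp1, whose protein binds the tail of an integrin beta subunit, and itgbl1, a secreted integrin-like protein, while the claudins include the claudin-domain genes cldnd1a and cldnd1b. The symbol cdh23 stands for 2 gene identifiers, ENSDARG00000007561 and ENSDARG00000094454.

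RNA of the optic fissure region (OF) was compared with RNA of the dorsal retina (DR), the control region, at 32, 48 and 56 hours post fertilisation (hpf). By the study's account the fissure is still open at 32 hpf, is fusing at 48 hpf and has fused at 56 hpf. The 6 groups, OF at 32, 48 and 56 hpf and DR at 32, 48 and 56 hpf, held 5 libraries each, described as biological replicates of dissected regions. The labels name no genotype, strain or treatment for any group and do not say how many embryos each library came from. Ventral retina outside the fissure was not sampled as a group, so a fissure signal and a ventral signal cannot be told apart. In such bulk samples fewer cells of a type and less RNA per cell also cannot be told apart.

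The optic fissure is a gap along the ventral eye cup. Its margins meet, the basement membrane between them breaks down, and the epithelial sheets join into one; failure to close leaves a coloboma. Integrins are pairs of an alpha and a beta chain that bind matrix proteins such as fibronectin, laminin and collagen. Classical cadherins join neighbouring cells by calcium-dependent contacts that are held to actin by catenins, and claudins form the strands of tight junctions.

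Library depth ran from 4492966 to 12318209 reads, and the 47 genes took 0.0555 to 0.121% of a library's reads. The 32 hpf libraries held reads of 13854 to 19311 genes in OF and 11777 to 18163 in DR, against 19799 to 20862 in OF and 18841 to 20277 in DR at 48 hpf. The replicate 1 pair at 32 hpf stood lowest, with 13854 genes in OF and 11777 in DR, and with 16.9 and 17.6% of reads from ribosomal protein genes. A list of 4 ventral eye genes summed to 72.6 in the 48 hpf replicate 5 library labelled OF and to 1851 in the one labelled DR, against the labels. In the other 14 pairs it was 1469 to 3898 in OF and 7.88 to 257 in DR. These 2 pairs are called the doubted pairs. Same-numbered OF and DR libraries of a time deviated together in all 15 pairs, so results are given from all 30 libraries as labelled and from a paired fit of the other 13 pairs (the kept pairs), in which each OF library is compared with its own DR library. Values below are normalised counts, listed in the order of replicates 1 to 5. Differences are on the scale of log2(normalised count + 1), with standard errors (SE), and adjusted p-values are from limma over all 17360 genes with a threshold of 0.05.

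The heat map of group means shows 3 patterns. Most cadherins were near their lowest at 32 hpf and higher at 48 and 56 hpf in both regions. Integrins and claudins were mixed, with some members higher, some lower and some near level at the later times. Differences between OF and DR at 48 hpf were smaller than those between 48 and 32 hpf in OF for most members. These means include the doubted pairs of 32 and 48 hpf, which bear on both differences. Counts were not divided by gene length, so they order samples for a gene and not genes against each other.

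**Figure D1:**
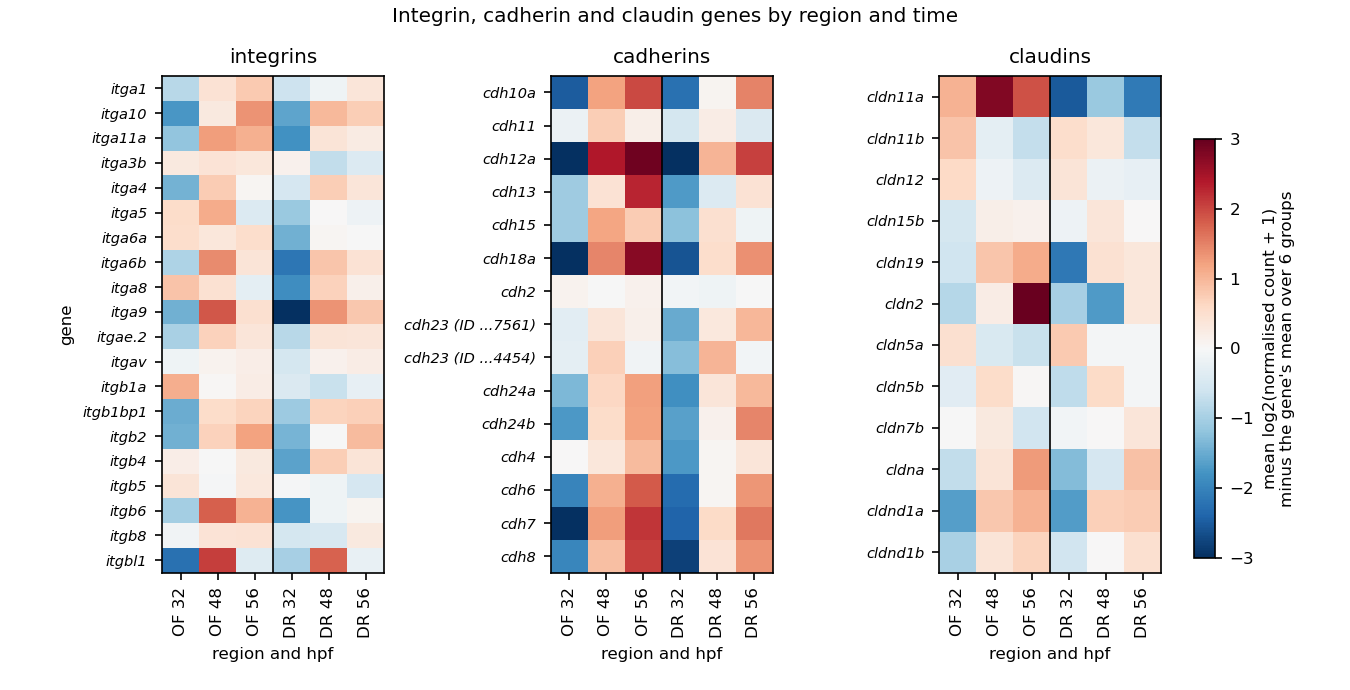
Mean log2(normalised count + 1) of each of the 47 genes in the 6 groups, centred on the gene's own mean; rows are genes by family and columns are OF at 32, 48 and 56 hpf and then DR at the same times. The type II cadherins cdh6, cdh7, cdh8, cdh10a, cdh12a and cdh18a are low in both 32 hpf columns and higher in the later columns of both regions. The means include the libraries of the doubted pairs.

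Among the integrins, the fibronectin receptor chain itga5 gave the clearest regional difference. At 32 hpf its values were 10.4, 47.1, 60.0, 64.6 and 44.1 in OF, against 60.0, 3.80, 15.4, 9.39 and 5.61 in DR. OF libraries 2 to 5 lay above DR libraries 2 to 5, while the doubted replicate 1 pair ran the other way, so the groups overlapped. The paired fit, without that pair, gave 2.66 (SE 0.42, 95% interval 1.78 to 3.54, limma adjusted p = 0.000768, higher in OF in 4 of 4 pairs). The fit of all 30 libraries gave 1.65 (SE 0.80, limma adjusted p = 0.569). The paired call held without each of the 13 pairs in turn. Here and below, only pairs of the times compared can change a paired difference between regions. Leaving out a pair of another time changes only its SE and adjusted p, and is a weaker check.

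The difference in itga5 was not seen at 56 hpf. At 48 hpf its values were 41.9, 77.4, 35.1, 56.6 and 103 in OF, against 25.2, 62.2, 16.1, 14.2 and 34.7 in DR. OF was higher in 4 of 4 kept pairs but short of the threshold (paired difference 1.01, SE 0.42, limma adjusted p = 0.175), and the last pair listed is the doubted one. At 56 hpf they were 77.2, 73.1, 7.80, 2.68 and 19.1 in OF, against 109.6, 38.9, 12.3, 5.22 and 23.4 in DR. Replicates 1 and 2 of both regions were the high libraries there, and 4 of 5 pairs were lower in OF. The change of the OF against DR difference from 32 to 56 hpf was the single such change called among the 47 genes, at −2.91 (SE 0.56, limma adjusted p = 0.0243 in the paired fit). It was lost without any of 5 of the 13 pairs, with an adjusted p of 0.075 without the 56 hpf replicate 1 pair. Of all genes 0.403% had a called change from 32 to 56 hpf in the paired fit, and 0.403% from 32 to 48 hpf, where no member had one.

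The chain itga9, which pairs with integrin beta 1 and binds matrix proteins such as tenascin, was close to 0 in DR at 32 hpf. Its values were 0, 2.09, 9.73, 9.23 and 8.33 in OF, against 0, 1.90, 1.02, 1.04 and 0 in DR. OF libraries 2 to 5 were above every DR library, and OF library 1 held no read. The paired difference was 2.01 (SE 0.54, limma adjusted p = 0.0481), against 1.61 (SE 0.65, adjusted p = 0.398) over all 30 libraries. This call was kept without only 2 of the 13 pairs, and the highest adjusted p was 0.224. By 48 hpf the values were 48.0, 34.5, 36.5, 50.6 and 87.0 in OF and 43.8, 28.4, 37.2, 21.3 and 41.9 in DR, and the regions overlapped.

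Chains of laminin receptors gave differences at 32 hpf that were not called. For itga6a the values were 88.8, 106, 103, 125 and 121 in OF, against 0, 73.2, 87.1, 80.4 and 30.4 in DR. The groups did not overlap, and without the doubted pair, whose DR library held no read, the difference was 0.84 (SE 0.32, limma adjusted p = 0.228) rather than 1.97 (SE 0.71, adjusted p = 0.292). The hemidesmosome chain itgb4 had 0, 14.6, 0.811, 12.9 and 13.3 in OF, against 0, 1.90, 0, 1.04 and 0.801 in DR, with a paired difference of 2.26 (SE 0.76, adjusted p = 0.144). The beta 1 chain itgb1a had 99.2, 9.41, 69.7, 10.1 and 35.0 in OF, against 9.99, 20.0, 10.2, 1.04 and 26.4 in DR, a spread within OF as wide as the gap between the regions (paired difference 1.12, SE 0.57, adjusted p = 0.473). Skin and corneal epithelium markers, 15 genes of which 2 had no read in OF and 6 had none in DR at 32 hpf, summed to 654 to 1698 in OF and 409 to 626 in DR at that time. Their part in the itgb4 and itga6a values was not tested.

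The vitronectin receptor chains itgav and itgb5, 2 of the 3 integrin symbols with the most reads, had no called difference between regions. For itgav the means were 83.8 ± 20.4, 97.0 ± 11.5 and 104 ± 16.5 in OF at 32, 48 and 56 hpf, and 64.3 ± 20.7, 101 ± 27.6 and 108 ± 24.9 in DR (SD, n = 5 each). The 95% interval of the paired OF against DR difference ran from −0.31 to 0.89 at 32 hpf, from −0.60 to 0.60 at 48 hpf and from −0.57 to 0.50 at 56 hpf. For itgb5 the widest regional gap was at 56 hpf, with 114, 199, 152, 43.8 and 133 in OF, against 86.0, 32.8, 84.7, 58.3 and 78.0 in DR (0.83, SE 0.31, limma adjusted p = 0.15 in the paired fit). Higher values in OF were seen in 4 of 5 pairs, and replicate 4 ran the other way. It was the single integrin at an unadjusted p under 0.05 at that time.

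Over time the integrins that rose from 32 to 48 hpf did so from low levels, which the threshold favours. No 32 hpf value of itga9, itga10, itgbl1 or itgb2 reached 10, so these met it only through later libraries. The collagen-binding chain itga10 and itga9 rose in both regions. For itga9 the mean at 48 hpf was 51.3 ± 21.1, against 5.88 ± 4.50 at 32 hpf in OF (3.30, SE 0.65, limma adjusted p = 0.000196), and 34.5 ± 9.51, against 0.794 ± 0.806 in DR (4.39, SE 0.65, adjusted p = 5.04e-06). In both regions every 48 hpf library was above every 32 hpf library. For itga10 the means were 6.97 ± 2.96 at 48 hpf, against 1.14 ± 1.25 at 32 hpf in OF (2.03, SE 0.70, adjusted p = 0.0231), and 12.0 ± 5.44, against 1.76 ± 2.61 in DR (2.56, SE 0.70, adjusted p = 0.00585). The itga10 call in OF was lost in the paired fit (1.72, SE 0.78, adjusted p = 0.0851), with edgeR, with a pseudocount of 5 and without any 1 of OF replicates 1 and 3 of 32 hpf and replicate 3 of 48 hpf (highest adjusted p 0.0628), and its sign turned under quantile scaling, where the DR call was also lost. The other integrins called higher at 48 hpf were itgbl1 and the leukocyte chain itgb2 in OF, and itga6b, itgb4 and itga8 in DR, without a called change between regions. For itgbl1 in OF the 48 hpf values were 16.3, 42.9, 14.8, 9.43 and 223, against 0, 0, 0.811, 0 and 4.16 at 32 hpf (4.30, SE 1.18, adjusted p = 0.00507); the highest value came from the doubted replicate 5 library. The paired fit gave 3.43 (SE 1.19, adjusted p = 0.0231), and quantile scaling ended the call. For itga6b in DR the means were 20.1 at 48 hpf and 2.63 at 32 hpf (3.01, SE 1.07, adjusted p = 0.0338).

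The calls of itgb2, itga6b, itgb4 and itga8 were not kept when the doubted pairs were left out. In the paired fit the adjusted p was 0.083 for itgb2 in OF, and 0.0665 for itga6b, 0.087 for itgb4 and 0.18 for itga8 in DR, and each call was also lost without a filter and under quantile scaling. Single libraries decided them too. The itgb2 call was lost without any 1 of OF replicates 1, 2 and 5 of 32 hpf and 1, 2 and 3 of 48 hpf (highest adjusted p 0.0975). The itga6b call was lost without any 1 of DR replicates 1, 3, 4 and 5 of 32 hpf and 1, 2 and 4 of 48 hpf (0.0845). The itgb4 call was lost without any 1 of DR replicates 1, 3, 4 and 5 of 32 hpf and 1, 2, 4 and 5 of 48 hpf (0.0884), and the itga8 call without any 1 of DR replicates 1, 4 and 5 of 32 hpf and 3, 4 and 5 of 48 hpf (0.1).

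For itgb1bp1, the integrin symbol with the most reads, the calls differed between the fits. Its 48 hpf values were 312, 420.3, 389, 310.2 and 260.2 in OF, against 0, 299, 166, 247 and 291 at 32 hpf. In DR they were 477, 461, 486, 345 and 169.7 at 48 hpf, against 6.66, 168, 186, 205 and 297 at 32 hpf. The near-absent values were those of the doubted 32 hpf pair. The last 48 hpf values listed, with the lowest of each region, were those of the other doubted pair. The paired fit leaves out both, so their parts cannot be told apart. With all 30 libraries the increase was not called (limma adjusted p = 0.112 in OF and 0.194 in DR), and in the paired fit it was 0.53 (SE 0.20, adjusted p = 0.0377) in OF and 1.06 (SE 0.20, adjusted p = 0.000175) in DR.

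Thrombocyte and macrophage markers, 10 genes, summed to 157 to 560 at 48 hpf, against 69.0 to 1358 at 32 hpf in OF, and to 231 to 472, against 44.9 to 119.8 in DR. The 1358 came from the doubted replicate 1 library. The medians were 358 at 48 hpf and 116 at 32 hpf in OF, and 303 and 85.5 in DR. Of 7 list genes tested, 3 were called higher at 48 hpf in OF and 4 in DR, where 25.6 and 22.1% of all genes rose. The part of such cells in the itgb2 rise was not tested. Among the chains below the threshold, the other beta 1 copies itgb1b.1 and itgb1b.2 had 81 and 45 reads in all 30 libraries together, and itgb3b, the chain of the platelet fibrinogen receptor, had 144.

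Among the cadherins, cdh4, which encodes R-cadherin of the retina, was the single member called between regions in the fit of all 30 libraries, at 32 hpf. Its values were 82.9, 143, 173, 113 and 102 in OF, against 70.0, 49.4, 12.3, 21.9 and 53.7 in DR. Every OF library was above every DR library. The difference was 1.74 (SE 0.42, limma adjusted p = 0.0304), and 2.12 (SE 0.34, 95% interval 1.41 to 2.83, adjusted p = 0.000897) in the paired fit, where it held without each of the 13 pairs. Over all 30 libraries the call was lost without any of OF replicates 2, 3 and 4 or DR replicates 3 and 4 of 32 hpf.

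The gap in cdh4 was narrower later, and its level rose in DR. There the mean was 137 at 48 hpf, against 41.5 at 32 hpf (1.80, SE 0.42, limma adjusted p = 0.00141), while OF gave 0.33 (SE 0.42, adjusted p = 0.574). At 48 hpf the values were 287, 162, 204, 122 and 64.7 in OF, against 195, 119, 161, 47.9 and 161 in DR. At 56 hpf they were 256, 192, 192, 233 and 299 in OF, against 241, 167, 149, 112 and 122 in DR. OF was still the higher library of every kept pair at both times, with paired differences of 0.67 (SE 0.34, limma adjusted p = 0.273) and 0.60 (SE 0.30, adjusted p = 0.302). In the doubted 48 hpf replicate 5 pair, whose eye markers run against its labels, the library labelled DR was the higher, so that pair counts neither way. The change of the regional difference from 32 to 48 hpf was −1.45 (SE 0.48, adjusted p = 0.231) in the paired fit and was not called.

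The type II cadherin cdh6 differed between regions during fusion. At 48 hpf its values were 661, 597, 839.8, 233 and 202 in OF, against 435, 260.0, 389, 62.1 and 179 in DR. OF was higher in 4 of 4 kept pairs. In the doubted replicate 5 pair, whose eye markers run against its labels, the library labelled OF was the higher, so that pair adds no backing. The groups overlapped, with libraries 4 and 5 of both regions low. The paired difference was 1.20 (SE 0.23, 95% interval 0.73 to 1.67, limma adjusted p = 0.00536) and held without each of the 13 pairs, with a highest adjusted p of 0.0481. Over all 30 libraries it was 0.99 (SE 0.49, adjusted p = 1.00). At 56 hpf cdh6 was again higher in OF in 5 of 5 pairs, with 1141, 866, 561, 692 and 612 in OF, against 745, 487, 442, 650.0 and 380.5 in DR, and without a call (0.51, SE 0.20, adjusted p = 0.171). At 32 hpf the paired difference was 0.02 (SE 0.23).

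More cadherins were called from 32 to 48 hpf than between regions at any time, and the same held for all genes. Over all 30 libraries 35.2% of all genes were called over this interval in OF and 28.5% in DR. Between regions 1.14, 0.00576 and 0.253% of them were called at 32, 48 and 56 hpf. The threshold favours such rises. No 32 hpf value of cdh12a reached 10, and for cdh18a only the 12.4 of DR replicate 2 did. Both met the threshold through later libraries, while cdh6 reached 10 in 29 libraries. The smallest adjusted p-values were those of cdh12a, cdh18a and cdh6, all type II cadherins, in OF. For cdh12a the 48 hpf values were 189, 227, 334, 101 and 41.5 in OF, against 0, 7.32, 6.49, 0 and 0 at 32 hpf (5.98, SE 0.64, limma adjusted p = 3.1e-08). In DR they were 70.1, 69.3, 144, 17.7 and 37.8 at 48 hpf, with no read in any 32 hpf library. With a floor of 3 reads a library at 32 hpf, the DR mean of 67.8 was at least 15.8-fold higher at 48 hpf (5.79 on the log2 scale, SE 0.64, adjusted p = 4.72e-08). For cdh18a in OF the values were 73.5, 47.5, 100.5, 14.6 and 37.5 at 48 hpf, against 0, 0, 0, 0 and 6.66 at 32 hpf (4.96, SE 0.73, adjusted p = 4.87e-06). For cdh6 the mean was 507 at 48 hpf, against 56.3 at 32 hpf in OF (3.05, SE 0.49, adjusted p = 1.39e-05), and 265, against 48.5 in DR (2.38, SE 0.49, adjusted p = 0.000385).

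The type II cadherins cdh7, cdh8 and cdh10a, named after their values were seen, were also called higher in both regions. Of these, cdh10a had no 32 hpf value of 10, so the threshold favoured its rise. For cdh7 the difference was 4.39 in OF (SE 0.85, limma adjusted p = 0.000164) and 2.98 in DR (SE 0.85, adjusted p = 0.00825), where edgeR, DESeq2 and quantile scaling did not call it. For cdh10a it was 3.70 in OF (SE 0.80, adjusted p = 0.000536) and 2.31 in DR (SE 0.80, adjusted p = 0.0288). The DR call was lost in the paired fit (adjusted p = 0.0798), with a pseudocount of 5, without a filter, and without any 1 of DR replicates 1, 2 and 5 of 32 hpf and 1, 2 and 3 of 48 hpf (highest adjusted p 0.086), and quantile scaling ended both calls. The weakest were those of cdh8, at 2.86 in OF (SE 1.1, adjusted p = 0.0432) and 3.2 in DR (SE 1.1, adjusted p = 0.0285). The paired fit kept the first (3.57, adjusted p = 0.00685) and lost the second (2.51, adjusted p = 0.0667), and edgeR, DESeq2 and quantile scaling called neither. Leaving out any 1 of OF replicates 3 and 5 of 32 hpf and 1, 2 and 3 of 48 hpf ended the OF call (highest adjusted p 0.143), and leaving out any 1 of DR replicates 1 and 3 of 32 hpf and 1, 2 and 3 of 48 hpf ended the DR call (0.102).

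The cadherin with the most reads, the N-cadherin gene cdh2 of the neural retina, was level. Its means were 3792 ± 1020, 3425 ± 277 and 3791 ± 397 in OF at 32, 48 and 56 hpf, and 3485 ± 1418, 3178 ± 331 and 3477 ± 744 in DR (SD, n = 5 each). The difference of 48 against 32 hpf was −0.11 in OF and −0.05 in DR (SE 0.20 each), and the 95% interval of the paired OF against DR difference at 56 hpf ran from −0.07 to 0.36. The mesenchymal cadherin cdh11 was higher at 48 than at 32 hpf without a call, by 0.93 in OF (SE 0.39, limma adjusted p = 0.0616) and by 0.75 in DR (SE 0.39, adjusted p = 0.153). The E-cadherin gene cdh1, the classical cadherin of epithelia, stayed below the threshold, with at least 10 in 4 libraries and 224 reads in all.

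**Figure D2:**
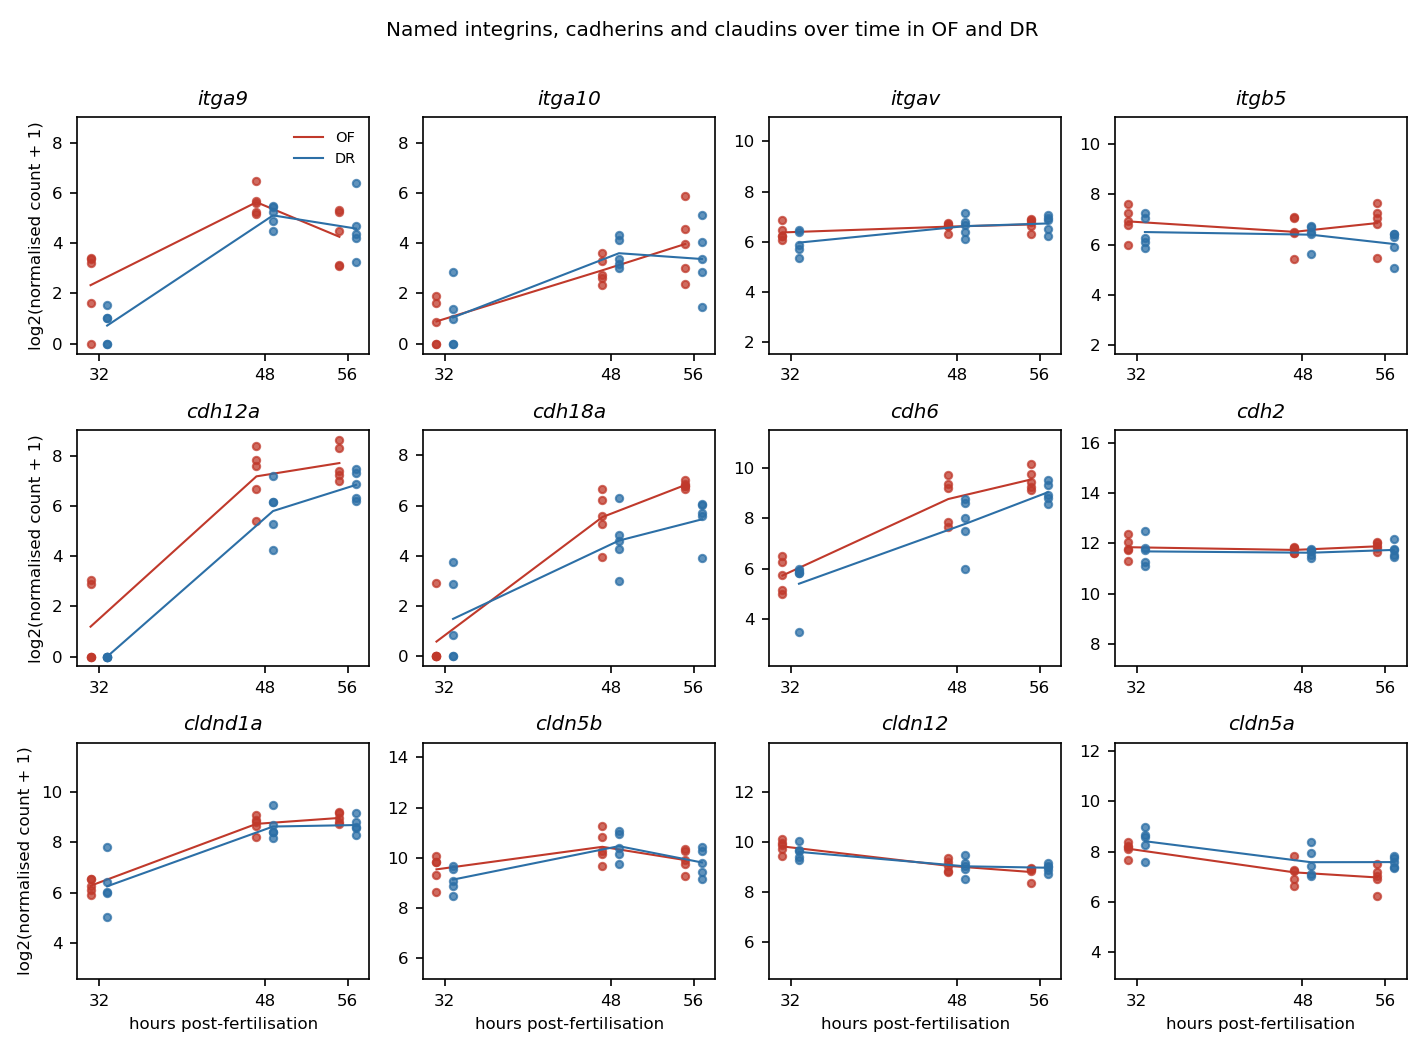
Log2(normalised count + 1) of 12 genes at 32, 48 and 56 hpf, with a point for each OF and DR library, drawn slightly apart at each time, and a line through each region's mean; every panel spans the same log2 range. The lines of cdh12a, cdh18a and cdh6 climb steeply between 32 and 48 hpf in both regions. Those of cdh2 are almost level, those of itgav rise slightly, more in DR than in OF, and those of cldn5a descend from 32 to 48 hpf.

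Among the claudins, cldn11a showed the most lasting regional difference. Claudin-11 is known in mammals from myelin and the testis. Its values at 32 hpf were 0, 46.0, 42.2, 147 and 34.1 in OF, against 0, 0, 0, 4.18 and 7.21 in DR. At 48 hpf they were 48.0, 60.6, 59.0, 82.3 and 284 in OF, against 4.38, 0, 16.1, 0 and 62.3 in DR. At 56 hpf they were 105, 101, 24.3, 42.9 and 16.6 in OF, against 5.55, 25.6, 0, 0 and 0 in DR. In DR only the values 16.1, 62.3 and 25.6 reached 10. The gene thus met the threshold through OF, which favours a higher value there. OF was the higher library of 13 of 13 kept pairs. The doubted 32 hpf replicate 1 pair held no read in either region, and the 48 hpf replicate 5 pair, whose eye markers run against its labels, was higher in the library labelled OF. The paired differences were 4.48 (SE 0.76, limma adjusted p = 0.00164), 4.33 (SE 0.76, adjusted p = 0.0032) and 4.04 (SE 0.68, adjusted p = 0.00174) at 32, 48 and 56 hpf, and each held without each of the 13 pairs. The fit of all 30 libraries called none of them (3.58, 3.90 and 4.04, SE 1.18 each, adjusted p = 0.196, 0.623 and 0.258).

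Markers of periocular mesenchyme and neural crest were read in the same libraries. Their sum over 13 genes at 48 hpf was 844, 1628, 552, 2284 and 4030 in OF, against 1360, 1140, 882, 752 and 1742 in DR. At 56 hpf it was 2237, 2403, 279, 321 and 347 in OF, against 1447, 1358, 181, 227 and 296 in DR. Replicates 1 and 2 of both regions were high at 56 hpf, and the same libraries were high for cldn11a in OF, for itga5 and for cdh11. The mesenchymal cadherin cdh11 had 485, 520.3, 171, 128 and 179 in OF, against 271, 296, 119.9, 103 and 120.1 in DR, higher in OF in 5 of 5 pairs and without a call (0.61, SE 0.24, limma adjusted p = 0.177). In OF replicates 3 to 5 at 56 hpf, where the marker sum was 279 to 347, cldn11a was 24.3, 42.9 and 16.6, against 0 in each DR library of those numbers. Other libraries had high values of both. The doubted replicate 5 pair of 48 hpf had marker sums of 4030 in OF and 1742 in DR, and cldn11a values of 284 and 62.3. In OF replicate 4 of 32 hpf the sum was 1376 and cldn11a 147, each the highest of its group. At 32 hpf 4 of the 12 list genes tested were called higher in OF in the paired fit, alongside itga5 and cldn11a. The fit of all 30 libraries called 0 of the 12, with a list median of 0.91. Of all genes 3.25% were called in that fit and 1.14% over all 30 libraries. Vessel genes were higher in OF at the same time. Of 11 tested, cdh5 and erg were called over all 30 libraries, with a list median of 2.55, and cdh5, erg, vsg1 and esama in the paired fit, with a list median of 1.88. The part of these cells in the differences of itga5, itga9, cldn11a and other genes was not tested.

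**Figure D3:**
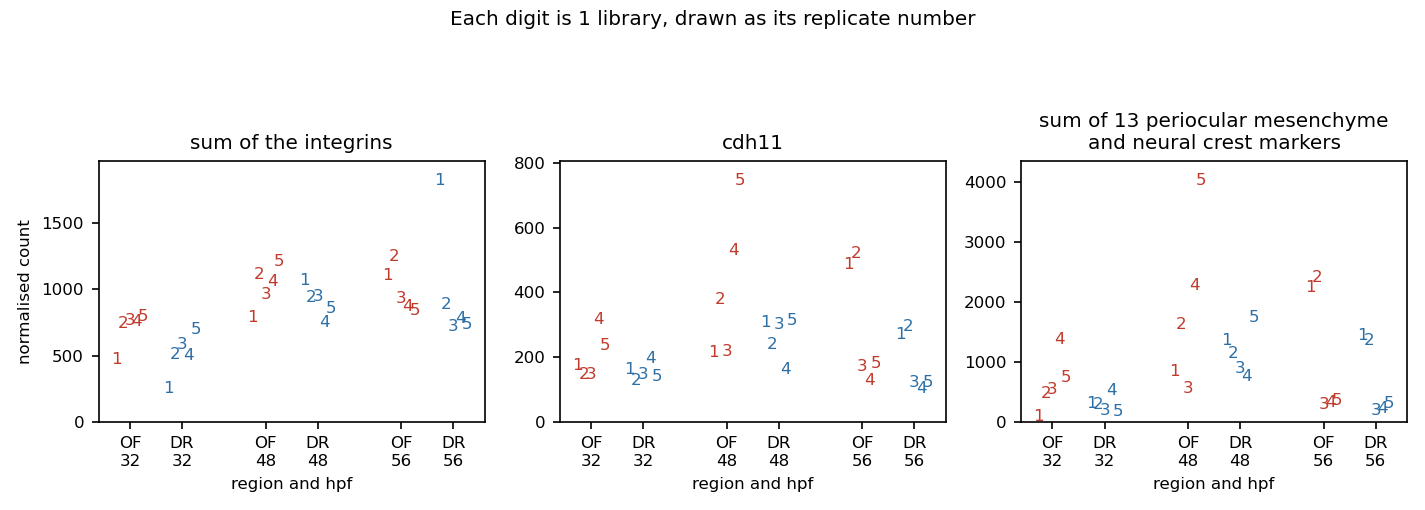
The integrin sum, cdh11 and the sum of the periocular mesenchyme and neural crest list in each of the 30 libraries by group, as normalised counts on linear axes from 0, each library drawn as its replicate number. At 56 hpf replicates 1 and 2 of both regions lie above replicates 3 to 5 for the marker list and for cdh11, and DR replicate 1 has the highest integrin sum of its group.

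The paralogue cldn11b went the other way at 48 hpf. Its values were 103, 91.3, 183, 260.5 and 130.1 in OF, against 251, 161, 443, 277 and 103 in DR. OF was lower in 4 of 4 kept pairs (−0.86, SE 0.24, limma adjusted p = 0.0456 in the paired fit). In the doubted replicate 5 pair, whose eye markers run against its labels, the library labelled OF was the higher, so that pair counts neither way. The call was lost without any of 6 of the 13 pairs, and at 32 and 56 hpf the paired differences were −0.02 and 0.02. Over all 30 libraries the 48 hpf difference was −0.62 and was not called. How far the counting split reads between the paralogues cldn11a and cldn11b, cldn5a and cldn5b, cldnd1a and cldnd1b or itga6a and itga6b was not tested, and their sequences were not compared. At 32 hpf DR replicates 2 and 3 had 0 for cldn11a beside 254 and 511 for cldn11b.

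The gene cldn5a, which in zebrafish is known from the neuroepithelium, was lower at 48 than at 32 hpf in both regions and lower in OF after fusion. Its mean was 149 ± 49.1 at 48 hpf, against 279 ± 48.4 at 32 hpf in OF (−0.94, SE 0.28, limma adjusted p = 0.0101), and 203 ± 86.6, against 357 ± 118 in DR (−0.84, SE 0.28, adjusted p = 0.0265). The paired fit kept the call in OF (adjusted p = 0.0139) and lost it in DR (−0.57, SE 0.28, adjusted p = 0.127). The DR call was also lost in a fit of the groups compared alone and without any 1 of DR replicates 1, 2 and 4 of 32 hpf and 2, 3 and 5 of 48 hpf (highest adjusted p 0.0865). At 56 hpf its values were 179, 145, 128, 75.1 and 118 in OF, against 228, 190.4, 213, 163 and 166 in DR. OF was the lower library of all 5 pairs, though the groups overlapped. The paired difference was −0.61 (SE 0.16, 95% interval −0.95 to −0.28, adjusted p = 0.0329), and the call was lost without any 1 of the 56 hpf pairs. Over all 30 libraries the difference was also −0.61 and was not called (limma adjusted p = 0.80).

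Its paralogue cldn5b, which is known from zebrafish vessels and had the most reads of the claudins, was higher at 48 than at 32 hpf in both regions. Its mean was 1496 ± 651 at 48 hpf, against 789 ± 268 at 32 hpf in OF (0.90, SE 0.32, limma adjusted p = 0.0288), and 1499 ± 555, against 588 ± 193 in DR (1.33, SE 0.32, adjusted p = 0.00196). The call in OF held in the paired fit (0.88, SE 0.33, adjusted p = 0.0334) and was lost with TMM scaling, with edgeR, in the unpaired fit of 26 libraries, and without any 1 of OF replicates 1 and 5 of 32 hpf and 3 and 4 of 48 hpf (highest adjusted p 0.107). At 56 hpf the mean was 997 in OF and 954 in DR, below those of 48 hpf without a call. Vessel markers, 12 genes, summed to 968 to 2832 at 48 hpf, against 1012 to 2772 at 32 hpf in OF, and to 1292 to 2491, against 429 to 1071 in DR. Of the 11 vessel genes tested, none was called over this interval in OF and 7 rose in DR, where 22.1% of all genes rose. Their part in the cldn5b values was not tested.

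The claudin-domain gene cldnd1a and the claudin cldn12 moved in opposite directions, each in both regions. For cldnd1a the 48 hpf mean was 433 ± 91.0, against 77.2 ± 14.0 at 32 hpf in OF (2.46, SE 0.32, limma adjusted p = 6.96e-07), and 418 ± 175, against 93.0 ± 75.2 in DR (2.38, SE 0.32, adjusted p = 1.18e-06). Every 48 hpf library was above every 32 hpf library in each region. For cldn12 the mean fell to 534 ± 88.1 at 48 hpf, against 912 ± 151 at 32 hpf in OF (−0.77, SE 0.18, adjusted p = 0.00105), and to 532 ± 122, against 789 ± 165 in DR (−0.57, SE 0.18, adjusted p = 0.0149). The DR call of cldn12 was lost without DR replicate 2 of 32 hpf or replicate 5 of 48 hpf (highest adjusted p 0.0625), and in a fit of the groups compared alone.

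The claudin gene cldn19, whose human counterpart is known from the kidney and the eye, was higher in OF at each time without a call. The paired differences were 0.68 (SE 0.26, limma adjusted p = 0.232), 0.65 (SE 0.26, adjusted p = 0.159) and 0.76 (SE 0.23, adjusted p = 0.0737) at 32, 48 and 56 hpf. OF was higher in every kept pair except 1 at 56 hpf, where DR replicate 1 had 325 and its OF library 234. Over time cldn19 was called in DR, with means of 189 at 48 hpf and 57.1 at 32 hpf (2.59, SE 0.75, adjusted p = 0.00904), a call lost in a fit of the groups compared alone, and in the paired fit the rises were 1.28 in OF and 1.31 in DR (SE 0.35 each). The claudin cldn15b was called in OF, with means of 184 at 48 hpf and 115 at 32 hpf (0.71, SE 0.26, adjusted p = 0.0358). The paired fit kept that call (0.58, adjusted p = 0.0372). It was lost with TMM or quantile scaling, without a filter, with the groups compared alone, with edgeR, and without any 1 of OF replicates 1, 3 and 4 of 32 hpf and 1, 2 and 3 of 48 hpf (highest adjusted p 0.111).

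Groups that did not overlap between regions were few. At 32 hpf they were cdh4, itga6a and itga8, all higher in OF, of 47 genes, where 0.881% of all genes tested were higher and 0.288% lower without overlap. At 48 hpf no member was free of overlap, against 0.668 and 0.219% of all genes. At 56 hpf cldn2 and cdh18a were higher in OF, against 2.22 and 0.726% of all genes. The gene cldn2, which forms cation-permeable tight junctions in mammals, had 119, 47.5, 17.3, 36.6 and 39.8 in OF, against 5.55, 5.12, 4.41, 4.35 and 14.0 in DR (2.64, SE 0.76, limma adjusted p = 0.0531 in the paired fit). For cdh18a the values were 115, 108, 110.0, 129 and 100.2 in OF, against 63.8, 51.2, 46.7, 65.3 and 14.0 in DR (1.37, SE 0.70, adjusted p = 0.309). For itga8 at 32 hpf they were 1.48, 6.28, 18.6, 13.8 and 8.33 in OF, against 0, 0.950, 1.02, 0 and 0 in DR. In DR cldn2 reached 10 only in replicate 5 of 56 hpf, so it met the threshold through OF, which favours a higher value there. The genes cldn2, itga8 and itgb2 are named after their values were seen.

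**Figure D4:**
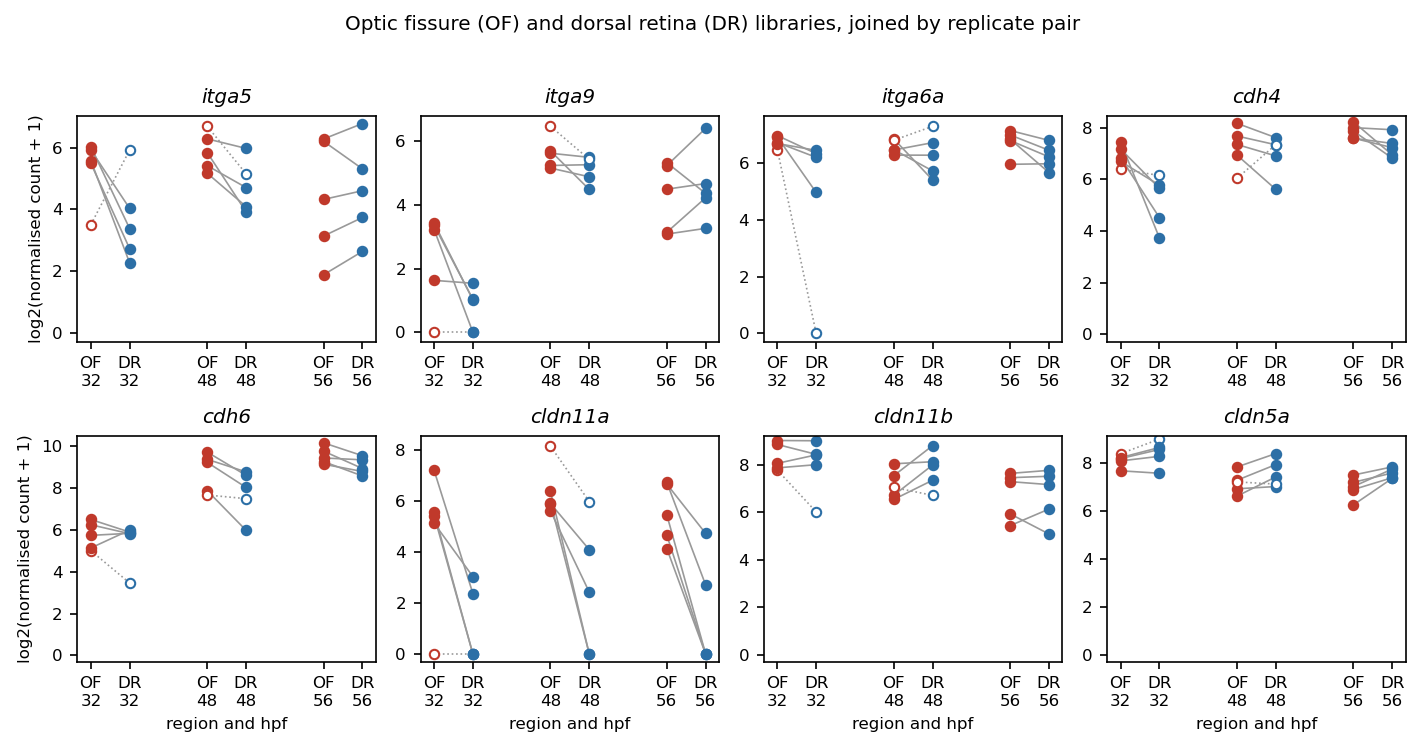
Log2(normalised count + 1) of 8 genes in OF and DR at each time, with a line joining each OF library to its own DR library; hollow points and dotted lines are the 2 doubted pairs. For cdh4 at 32 hpf, cldn11a at all 3 times and cdh6 at 48 hpf every solid line is higher at its OF end, and for cldn5a at 56 hpf every line is lower there.

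Side by side, the region comparison called few members of any family. In the fit of all 30 libraries, cdh4 at 32 hpf was the 1 member called, where 1.14% of all genes were called. At 48 and 56 hpf limma called 0 of 47, with 3 and 4 members at an unadjusted p under 0.05. Both edgeR and DESeq2 also called 0. Of all genes limma called 0.00576 and 0.253%. At 48 hpf, with the doubted replicate 5 pair included, this limma fit also called 0 of 4 ventral and 0 of 4 dorsal eye genes. The paired fit, without that pair, called all 4 of each. A count of 0 at 48 hpf over all 30 libraries therefore cannot show that the members did not differ. The change of the OF against DR difference from 32 to 48 hpf and from 32 to 56 hpf had 0 called members in limma, edgeR and DESeq2, 3 members each at an unadjusted p under 0.05 in limma, and 0.00576% of all genes called in each. In the paired fit 4 members were called at 32 hpf (itga5, itga9, cdh4 and cldn11a), 3 at 48 hpf (cdh6 and cldn11a higher, cldn11b lower) and 2 at 56 hpf (cldn11a higher, cldn5a lower). The paired fit called 3.25, 4.5 and 4.72% of all genes at these times, beside 8.51, 6.38 and 4.26% of the 47 members, so the members' shares stood near the background at 48 and 56 hpf.

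No test compared the families with each other. At 32 hpf 11 of 15 cadherins, 13 of 20 integrins and 9 of 12 claudins were higher in OF over all 30 libraries, beside 9739 of all 17360 genes. At 48 hpf 14 of 15 cadherins, 15 of 20 integrins and 8 of 12 claudins were higher in OF, beside 10621 of all genes. In the paired fit the counts were 9 of 15, 13 of 20 and 8 of 12 at 32 hpf, beside 9389 of all 17360 genes. At 48 hpf they were 15 of 15, 14 of 20 and 6 of 12, beside 10572 of all genes. The median differences at 48 hpf were 0.53 for cadherins, 0.42 for integrins and 0.19 for claudins, beside 0.10 for all 17360 genes, and 0.84, 0.44 and 0.09, beside 0.13, in the paired fit. At 32 hpf the medians were 0.35, 0.42 and 0.18 for cadherins, integrins and claudins, beside 0.06 for all genes, and the paired fit gave 0.07, 0.26 and 0.21, beside 0.02. At 56 hpf they were 0.56, 0.07 and 0.16, beside 0.08. Under quantile scaling, which gives every library the same distribution of values, the medians of cadherins stayed above 0 at all 3 times (0.22, 0.31 and 0.48), while that of claudins was −0.02 at 32 hpf and that of integrins −0.17 at 56 hpf.

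The integrin median at 56 hpf moved when 1 library was left out. DR replicate 1 at 56 hpf held reads of 25740 genes, the most of any library, and had the highest value of its group for 19 of 20 integrins, 11 of 15 cadherins and 3 of 12 claudins. The share of all genes with their highest value of the group in that library was not computed. The integrin sum of DR replicate 1 was 1822, against 718 to 886 in the other DR libraries of that time. Without DR replicate 1, 19 of 20 integrins were higher in OF at 56 hpf, with a median of 0.70, against 10 of 20 with it. The median of all genes was 0.14 without it and 0.08 with it. The cadherin and claudin medians were 0.81 and 0.20 without it, and 0 members were called. This fit was unpaired and kept the OF partner of that library. Family medians without the whole pair were not computed.

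**Figure D5:**
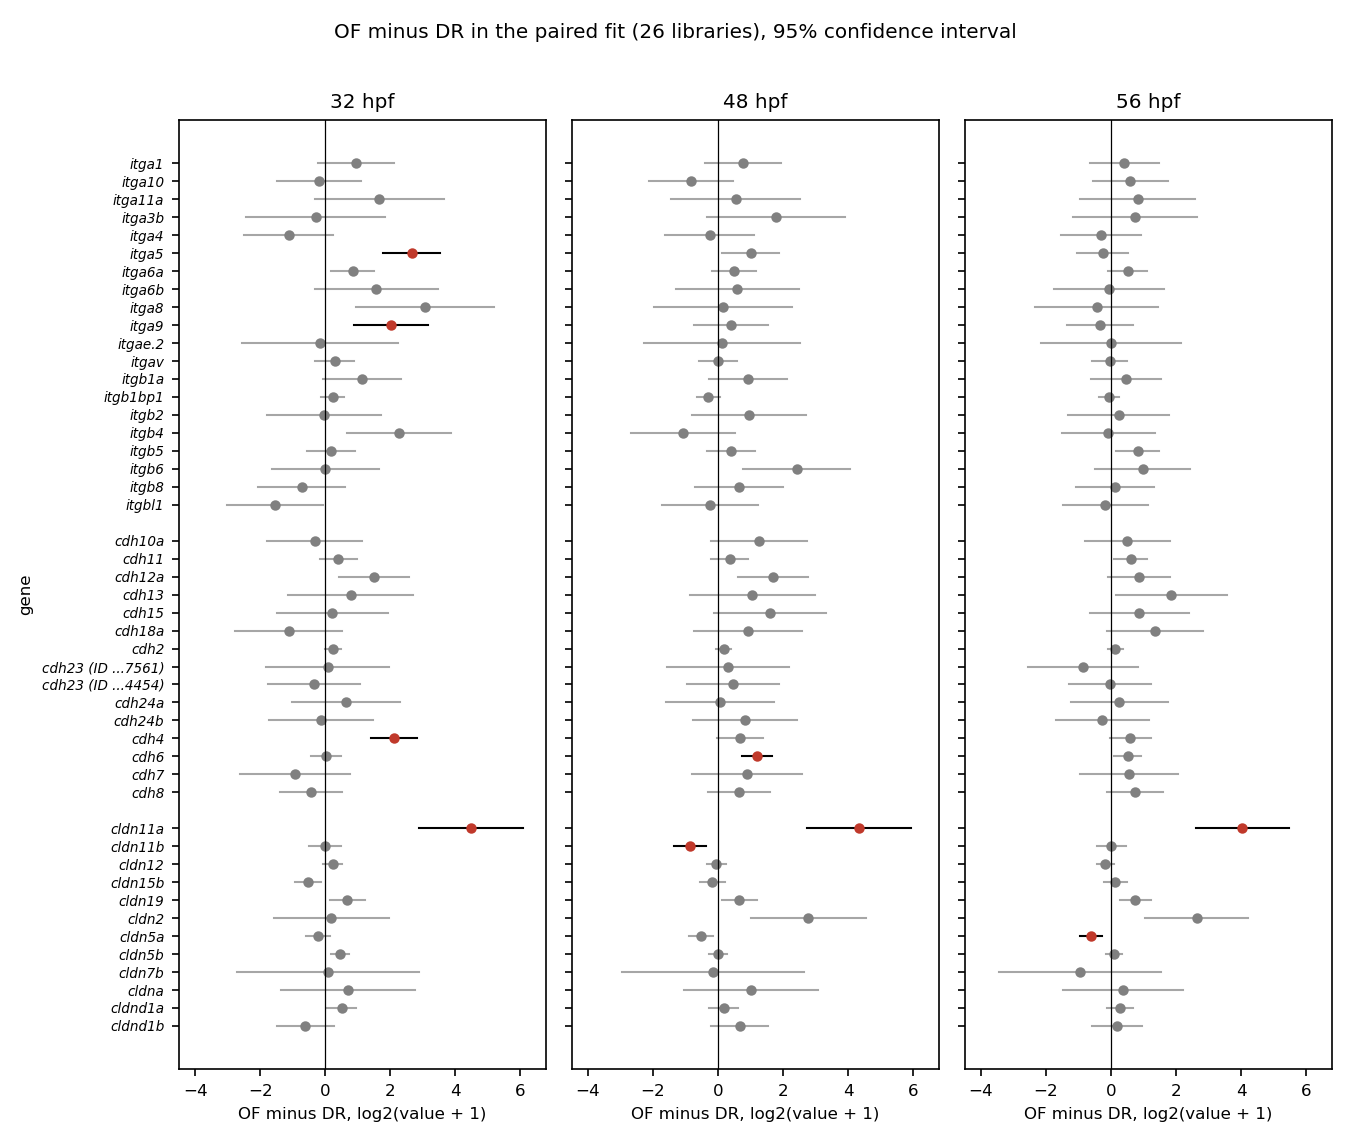
Difference of OF minus DR in log2(normalised count + 1) in the paired fit for the 47 genes at 32, 48 and 56 hpf, with 95% intervals; called genes are red. All 15 cadherins lie right of 0 at 48 hpf, where 10572 of all 17360 genes were higher in OF in this fit. The single gene in red at all 3 times is cldn11a.

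Over time the cadherins had the highest median of the 3 families in both regions, a difference between families that was not tested. The threshold bears on these counts and medians. Among others, cdh10a, cdh12a, itga9, itga10 and itgb2 had no 32 hpf value of 10 and met it only through later libraries. A gene near 0 at 32 hpf could thus enter only by being higher later, which favours rises. The same threshold was applied to all genes. From 32 to 48 hpf 7 of 15 cadherins rose in OF and 8 of 15 in DR, with 0 lower in either. Of the integrins 4 of 20 rose in OF and 5 of 20 in DR, also with 0 lower. Of the claudins 4 of 12 rose and 2 fell in OF, and 3 rose and 2 fell in DR. Together 15 members rose and 2 fell in OF, where 25.6% of all genes rose and 9.61% fell, and 16 rose and 2 fell in DR, where 22.1% rose and 6.39% fell. In either direction 35.2% of all genes were called in OF and 28.5% in DR. The called shares were 46.7% in OF and 53.3% in DR for cadherins, 20 and 25% for integrins, and 50 and 41.7% for claudins, whose calls ran both ways. In the paired fit they were 53.3 and 33.3% for cadherins, 20 and 15% for integrins and 66.7 and 33.3% for claudins, beside 38.3 and 29.8% of all genes. The paired fit called 20 of the 47 genes in OF and 12 in DR, so in DR the shares of cadherins and claudins stood near the background. Of the 47 genes 10 rose in both regions and 2, cldn12 and cldn5a, fell in both, while 5 were called in OF alone and 6 in DR alone with no called change between regions. The rises in both regions were those of itga9, itga10, 6 type II cadherins, cldn5b and cldnd1a. The shares of all genes called in both regions or in a single region were not computed. These counts therefore have no background and cannot show a trait of the members.

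The family medians for 48 against 32 hpf were 2.25 for cadherins, 1.47 for integrins and 0.99 for claudins in OF, beside 0.38 for all genes. In DR they were 2.21, 1.44 and 0.54, beside 0.35. The all-gene median depended on the scaling: it was 0.26 in both regions with TMM factors, and −0.16 in OF and −0.17 in DR with quantile scaling. Under quantile scaling the cadherin medians were 0.55 in OF and 0.40 in DR, with 10 and 12 of 15 higher. The integrin median turned to −0.13 in OF, with 8 of 20 higher, and was 0.08 in DR, and the claudin medians turned to −0.15 and −0.40. The members called were then 7 higher and 6 lower in OF and 7 higher and 5 lower in DR, and with edgeR they were 9 higher and 4 lower in OF and 13 higher and 2 lower in DR. Fewer genes had reads at 32 hpf than at 48 hpf, as given above, and the part of that in the rises of low-count members was not tested.

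From 48 to 56 hpf limma, edgeR and DESeq2 called 0 of the 47 genes in either region. In limma 3 members in OF and 2 in DR had an unadjusted p under 0.05, and 0.0173 and 0.0115% of all genes were called. The cadherin median was 0.62 in OF and 0.84 in DR, with 11 and 12 of 15 higher at 56 hpf, beside 0.05 and 0.06 for all genes. The integrin medians were −0.02 and −0.10 and the claudin medians −0.12 and −0.03. Without DR replicate 1 at 56 hpf the DR medians were 0.27 for cadherins, −0.64 for integrins and −0.07 for claudins, beside 0.02 for all genes.

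Partner genes of the families changed in both directions from 32 to 48 hpf, where 35.2% of all genes were called in OF and 28.5% in DR. Of 12 adherens junction and catenin genes tested, 3 rose and 3 fell from 32 to 48 hpf in OF, and 3 rose and 2 fell in DR. The catenin genes ctnna2 and ctnnd2a, known from neurons, rose by 2.88 and 3.08 in OF and by 3.59 and 3.09 in DR, while ctnnd2b fell by 0.88 in OF and by 0.84 in DR. The gene jupa, which encodes plakoglobin, rose by 1.23 in OF and 1.20 in DR, and vclb, a vinculin gene, fell by 1.11 in OF and by 0.90 in DR. Of 17 tight junction partners, 3 rose and 1 fell in OF and 3 rose in DR. Those that rose in both regions were the scaffold gene tjp2a (2.05 in OF and 1.31 in DR), the junctional adhesion gene jam3a (1.81 and 1.41) and the apical polarity gene crb2b (2.80 and 3.23). No DR library of 32 hpf held a read of crb2b, so the size of its rise in DR depends on the pseudocount. Of 23 integrin adhesion genes, 4 rose and 1 fell in OF and 4 rose and 2 fell in DR, with the talin gene tln2a higher in both regions (0.92 and 1.25) and the kindlin gene fermt2 lower in both (−0.78 and −0.80).

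Between regions 1 partner gene was called over all 30 libraries. The focal adhesion gene tns1a was higher in OF at 32 hpf by 2.92 (SE 0.73, limma adjusted p = 0.0381), and by 3.49 (SE 0.66, adjusted p = 0.00405) in the paired fit, the same time at which itga5 was called. The paired fit also called the tight junction scaffold gene tjp1a at 32 hpf (0.73, SE 0.13, adjusted p = 0.00269), jupa at 56 hpf (0.69, SE 0.19, adjusted p = 0.0384), and crb2b at 48 hpf (2.35, SE 0.60, adjusted p = 0.0337) and 56 hpf (2.62, SE 0.54, adjusted p = 0.0077). No other gene of the 3 partner lists was called between regions in either fit. Of all genes 1.14% were called at 32 hpf over all 30 libraries. The paired fit called 3.25, 4.5 and 4.72% of them at 32, 48 and 56 hpf.

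The threshold itself drew a line through genes of like abundance. Just inside it, cdh15, a muscle cadherin, had at least 10 in 5 libraries, and cldna and the leukocyte chain itgae.2 in 6. Just outside it, cdh1, cdh17 and cldnb had at least 10 in 4. Just below the threshold, cdh1 had 224 reads in all libraries, cdh17 had 176 and cldnb had 101.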

How the data were processed

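RNA of dissected OF and DR regions was sequenced in 30 libraries (6 groups, 5 biological replicates each), with a kit for fixed tissue and low-input libraries per the labels' protocols. The submitters' processing notes name build GRCz10 and, without roles, STAR 2.4.0, HTSeq, DESeq2, Picard and Trim Galore; the strand setting and the annotation release are not given in the sources used here. The deposited table holds a signal per gene and library, gene counts the authors divided by a size factor: with a tolerance of 0.01 reads, 100% of values were whole multiples of a library's step, and reads were recovered from them.

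Values were tested as log2(value + 1) with limma 3.58.1 (trend, R 4.3.3) with 6 group means over genes with a value of at least 10 in at least 5 libraries, Benjamini-Hochberg adjusted and called at 0.05. The paired fit took each OF and DR pair as a block (a random block for comparisons over time) in 26 libraries. The correlation of the random block was 0.429 when fitted to all 30 libraries, and its value in the 26 libraries is not given here. The pairing comes from the data: deviations from group means correlated in all 15 same-numbered pairs (0.228 to 0.520, median 0.380), and each library correlated best with its own partner. The blocked values stand beside the region results, since they change calls. edgeR 4.0.16 and DESeq2 1.42.0 on recovered reads, other pseudocounts, filters and scalings, and each library left out were alternatives. The limma script was tested on simulated data.

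Genes with values in the text were the members called between regions or in a change of that difference, up to 3 increases and 3 decreases a family and time comparison by smallest adjusted p, the 3 members a family with the most reads, and a list by role; others are said to be named after their values were seen. The members, lists and tests were chosen with earlier results of these data known, and the partner and marker lists are no independent evidence. Sequences and positions are not used here.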

Additional observations from a re-analysis of the deposited data

Results flagged for a closer look

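In 31 of 278 groups of 5 libraries (11.2%), 1 library lay far from the other 4 on the log2 scale, with a gap to its nearest neighbour above 0.71 of the group's range. Chance flags about 1 in 20 groups, and groups with a single non-zero library always qualify. The replicate 1 pair at 32 hpf, which has the fewest genes with reads, supplied 10 of them. In OF it had 10.4 for itga5, 0 for itgb1bp1, 0 for cldn11a, 1.48 for itga1 and 11.8 for itgb6, the last against 0 in the other libraries of the group. In DR it had 6.66 for itgb1bp1, 9.99 for cdh6, 0 for itga6a, 0 for cldn19 and 9.99 for cldnd1b.

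Other OF libraries of 32 hpf were replicate 5, with 29.1 for cdh7, 0.833 for itgb8, 6.66 for cdh18a and 0.833 for cdh15, and replicate 3, with 4.05 for cdh10a, 4.86 for cdh24a and 4.86 for cdh24b. In DR at 32 hpf they were replicate 2 with 12.4 for itga6b, replicate 3 with 14.3 for cdh23 (ENSDARG00000007561) and replicate 5 with 10.4 for cdh13.

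In OF at 48 hpf replicate 1 had 77.6 for itgav and replicate 5 had 34.3 for cldnd1b and 0.798 for cdh23 (ENSDARG00000094454). In DR at 48 hpf replicate 5 had 27.6 for itga3b, replicate 3 had 0 for cldn7b, and replicate 1 had 0 for itgb2 and 0 for cdh24b. The 2 replicate 5 libraries are the pair that runs against its labels. In OF at 56 hpf replicate 4 had 331 for cldn12 and replicate 3 had 0 for itga6b. In DR at 56 hpf replicate 5 had 14.0 for cldn2 and 14.0 for cdh18a.

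The difference of OF against DR in itga5 changed from 32 to 56 hpf by −2.91 in the paired fit, by a test of that change (limma adjusted p = 0.0243).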

How the results depend on the processing

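Called members in OF against DR at 32 hpf numbered 1 over all 30 libraries, 0 with quantile scaling or only the groups compared, 2 with the replicate block, 2 without the doubted pairs, 4 with both, and 0 to 2 without single replicates (0 without OF replicate 2, 3 or 4 or DR replicate 3 or 4, and 2 without OF replicate 1). At 48 hpf they numbered 0, 1 without the doubted pairs and 3 with the block as well. At 56 hpf they numbered 0, 1 with a pseudocount of 5, 1 with the block, 1 without the doubted pairs and 2 with both. The change from 32 to 56 hpf had 0, and 1 with the block and without the doubted pairs. The block changed no call in the other change or from 48 to 56 hpf. For 48 against 32 hpf the counts were 17 in OF and 18 in DR; a filter at a mean of 50 left 9 and 9, by testing fewer genes, and leaving out single replicates gave 11 to 20 in OF (11 without OF replicate 3 of 48 hpf) and 11 to 19 in DR (11 without DR replicate 1 of 32 hpf). Of 35 called results over time, 20 kept the call without every single library and 14 also under every other alternative. The difference of itga10, 48 against 32 hpf in OF, reversed with quantile scaling (−0.0745, limma adjusted p = 0.941); beyond the scaling itself, the cause was not tested. Leaving out each of 13 pairs in the paired fit was added after seeing the data. With 5 libraries a group that may share embryo pools, p-values measure the spread between these libraries only, and counts under 10 limit low members.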
